A study of Danio rerio with 12 samples.

Results

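R-spondins are secreted proteins that strengthen Wnt signaling at the cell surface. They bind the leucine-rich repeat receptors Lgr4, Lgr5 and Lgr6 together with the transmembrane ubiquitin ligases Znrf3 and Rnf43, and so keep these ligases from removing Frizzled and Lrp receptors, as worked out mainly in mammalian cells and in Xenopus. The wisp1a gene, named ccn4a in RefSeq, encodes a secreted matrix-associated protein of the CCN family that was first found in mammalian cells as a gene induced by Wnt1. Apc acts inside the cell, downstream of these receptors, in the complex that marks β-catenin for degradation. The genes described here are those rows of the zebrafish count table named rspo1, rspo2, rspo3, lgr4, lgr5, lgr6 or wisp1a. Of these 7 names, 6 matched 1 row each out of 25902 genes, and the name lgr5 matched no row and is not analysed here.

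RNA was sequenced from pools of whole zebrafish embryos harvested at 48 hpf, with 20 embryos per replicate and 3 replicates in each of 4 groups. The groups were WT with vehicle, apcmcr/mcr with vehicle, WT with 100 nM rapamycin and apcmcr/mcr with 100 nM rapamycin. Rapamycin is an inhibitor of mTORC1. Vehicle was 0.1% DMSO, which the rapamycin groups also had, and each treatment was given from 24 hpf. The mcr allele truncates Apc in the mutation cluster region and is carried in every cell, and apcmcr/mcr embryos are called mutant below. Homozygotes were sorted by their bent axis at 24 hpf, so the WT group holds apcmcr/+ heterozygotes besides wild-type embryos. Embryos came from 3 clutches. Because whole embryos were used, a lower count can come from fewer cells of a type or from less RNA per cell. A higher count can likewise come from more cells of a type or from more RNA per cell. In either direction these cannot be told apart.

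Total counts per library ranged from 69693340 to 82364863 except in WT rapamycin replicate 2, which had 51692772. WT rapamycin replicates 2 and 3 stood apart. The rank correlation of gene levels between replicates was 0.945 to 0.980 in the WT rapamycin group and at least 0.988 in the other groups, and in replicate 2 a single gene took 12.9% of the counts. For the 6 genes, the comparison of genotypes in rapamycin is also given without both libraries. WT libraries with vehicle held 10007 to 10365 raw counts of apc itself and mutant libraries 5593 to 8270, and in rapamycin these ranges were 3808 to 10761 and 5761 to 7439. A truncating allele can still be transcribed, so this level does not check the labels. Every matched marker of muscle, neurons, epidermis, erythrocytes, endothelium, liver and cartilage had counts in all 12 libraries. Of 4 fin fold markers, the actinodin genes and1 and and2 were called lower in mutant larvae with vehicle, fras1 was not called, and hmcn2 had no count in any library. Levels are given in CPM, counts scaled to the library total times edgeR's TMM factor. The summed level of the fin fold markers was 1069.9 to 1246 CPM in WT and 245 to 354 in mutant libraries with vehicle. In rapamycin these ranges were 1097 to 1357 and 306 to 313. For 3 cartilage markers the sums were 127 to 233 and 27.3 to 127 with vehicle, with matn1 and acana called lower and col2a1a not. Of 4 liver markers fabp10a was called lower, and none of the muscle, neuron, epidermis, erythrocyte or endothelium markers was called. Some had an edgeR adjusted p under 0.05 with vehicle at less than 2-fold. By log2 fold change, krt5 (-0.73), tfa (-0.63), elavl4 (-0.53) and kdrl (-0.31) were lower in mutant larvae, and epcam (0.70) and cldni (0.26) higher. The part of these cell types in the results below was not tested.

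The question was how the mRNA levels of these ligands, receptors and wisp1a differ when Apc is truncated, and whether rapamycin changes them. In mutant larvae with vehicle, wisp1a was 12.8-fold and rspo2 4.40-fold higher than in WT, whereas rspo1 was 3.12-fold lower. The ligand rspo3 was lower and the receptor lgr6 higher by somewhat less than 2-fold, and lgr4 was not called. A gene was called when its edgeR quasi-likelihood test had a Benjamini-Hochberg adjusted p under 0.05 over all genes tested and its change was at least 2-fold. By this rule 3 of the 6 genes were called, where 7.95% of 22335 genes were. All 3 took their names from the paper's own list of genes changed between mutant and WT larvae. The share of all genes is thus no independent background for them. Without the 2-fold minimum, 5 of 6 passed, 3 higher and 2 lower, where 28.4% of all genes did (14.8% higher and 13.6% lower). The same 5 had an unadjusted p under 0.05, as had 39.3% of all genes. Mutant and WT libraries did not overlap for these 5, and they did not overlap for 43.8% of all genes. The median log2 fold change of the 6 genes was 0.36, and that of all genes was -0.0043. In the plot of counts by library, normalized counts are counts divided by library size with edgeR's TMM factors and given for a library of 74100000 counts.

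**Figure D1:**
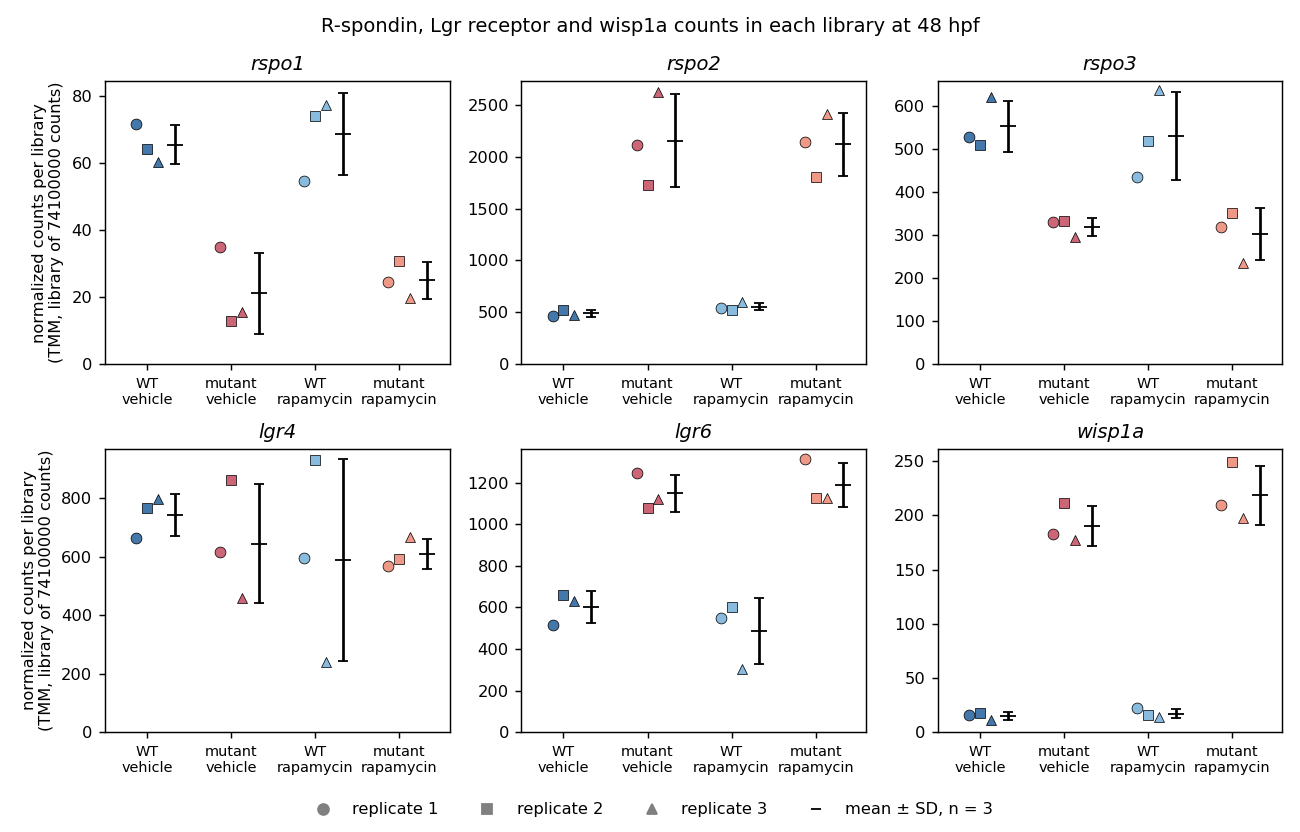
Normalized counts (vertical axis, from 0) of the 6 genes in each of the 12 libraries, by genotype and treatment, with symbols for replicate numbers and the mean ± SD beside them. Mutant libraries lie apart from WT libraries for rspo1, rspo2, rspo3, lgr6 and wisp1a in both treatments, and for lgr4 they overlap.

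Among the ligands, rspo2 (ENSDARG00000079570), which in mice is needed for limb and lung development, had raw counts of 506, 557 and 523 in WT replicates 1 to 3 with vehicle and 2005, 1884 and 2704 in mutant replicates 1 to 3. Every mutant library thus held more than 3 times the reads of any WT library. Normalized counts were 2155 ± 448 in mutant and 489 ± 32.0 in WT larvae (SD, n = 3). The log2 fold change was 2.14, with a standard error (SE) of 0.15 and an adjusted p by edgeR of 3.01e-05, and it was at or above the value of 98.9% of the genes tested. With each library left out in turn it stayed between 1.97 and 2.28. In rapamycin the raw counts were 597, 333 and 480 in WT and 2258, 1948 and 2445 in mutant libraries, again without overlap. The 4 group means fell into a low pair, WT with vehicle and WT with rapamycin (555 ± 37.2), and a high pair, mutant with rapamycin (2120.2 ± 304) and mutant with vehicle, and within each pair rapamycin and vehicle libraries were not told apart by the test given below (SD, n = 3).

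The other R-spondin genes of the 6 were lower in mutant larvae. For rspo1 (ENSDARG00000104340), which in zebrafish has a role in vessel sprouting and in mammals in ovary formation, raw counts were low, with 78, 68 and 66 reads in WT and 33, 14 and 16 in mutant libraries with vehicle. The mutant libraries were all below the WT libraries, and replicate 1 held about as many reads as the other mutant libraries together. Normalized counts were 21.1 ± 12.01 in mutant and 65.3 ± 5.80 in WT larvae (SD, n = 3), so the spread among mutant replicates reached 57.0% of their mean. The log2 fold change of rspo1 was -1.64 (SE 0.38, adjusted p = 0.0120 by edgeR). It lay between -2.20 and -1.38 with each library left out in turn, and it did not pass a test against a 2-fold change (edgeR glmTreat, adjusted p = 0.428). In rapamycin, WT libraries held 60, 47 and 62 reads of rspo1 and mutant libraries 26, 33 and 20, with group means of 68.6 ± 12.1 and 25.0 ± 5.44 normalized counts (SD, n = 3).

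The ligand rspo3 (ENSDARG00000070081), which in mice is required for placental vessels, had raw counts of 574, 541 and 679 in WT and 313, 362 and 304 in mutant libraries with vehicle. Normalized counts were 319 ± 21.0 in mutant and 552 ± 58.8 in WT larvae (SD, n = 3). The log2 fold change of rspo3 was -0.79 (SE 0.13, adjusted p = 0.00192 by edgeR), a 1.73-fold lower level that is under the 2-fold limit. Counts in rapamycin were 476, 329 and 513 in WT and 337, 379 and 237 in mutant libraries. The raw count of WT rapamycin replicate 2, the smallest library, lay within the mutant range, and after normalization the groups did not overlap, at 529.8 ± 102 in WT and 302 ± 60.7 in mutant larvae (SD, n = 3). The fourth R-spondin gene of the table, RSPO4 (ENSDARG00000038593), which in humans is linked to nail formation, is not among the 6 genes. It had 74, 91 and 61 reads in WT and 114, 104 and 168 in mutant libraries with vehicle, and its log2 fold change of 0.85 (SE 0.26, adjusted p = 0.0389 by edgeR) was under 2-fold. It was called at 1.03 without WT vehicle replicate 2 and at 1.02 without mutant vehicle replicate 2. Its adjusted p by edgeR was 0.0738 to 0.132 without any one of the other 4 libraries, and 0.0880 with all 12 libraries in one model.

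The divergence of rspo2 from rspo3 can be read within each library, where no scaling enters. The ratio of rspo2 to rspo3 counts was 0.882, 1.03 and 0.770 in WT and 6.41, 5.20 and 8.89 in mutant libraries with vehicle. On average it was 7.51-fold higher in mutant larvae. In rapamycin it was 1.25, 1.01 and 0.936 in WT and 6.70, 5.14 and 10.3 in mutant libraries, 6.69-fold higher. All mutant values lay above all WT values in each treatment. This follows from rspo2 being higher and rspo3 lower in mutant libraries, each without overlap of normalized counts. An exact permutation test, two-sided, gave p = 0.1 in each treatment, which is the smallest p that 3 libraries against 3 allow. Its outcome was fixed by that separation, so it adds no support. These are ratios of counts not corrected for transcript length, so a ratio of 1 does not mean equal amounts of the mRNAs.

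**Figure D2:**
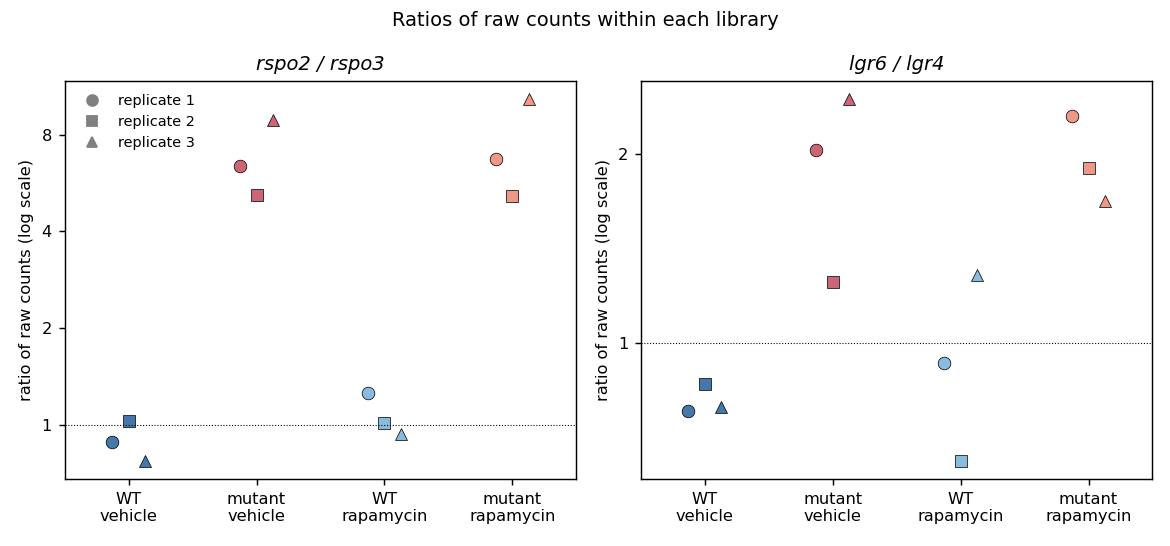
Ratio of raw counts within each of the 12 libraries (log axis) for rspo2 over rspo3 on the left and lgr6 over lgr4 on the right, by genotype and treatment, with symbols for replicate numbers. The rspo2 to rspo3 ratio is 0.770 to 1.25 in WT and 5.14 to 10.3 in mutant libraries, while the highest lgr6 to lgr4 ratio of WT libraries, 1.28, lies above the lowest of the mutant libraries, 1.25, when treatments are pooled.

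Of the receptors, lgr6 (ENSDARG00000098308), known in mice as a marker of stem cells in the hair follicle, had raw counts of 563, 699 and 691 in WT and 1183, 1176 and 1159 in mutant libraries with vehicle. The mutant libraries were close to one another and all above WT. Normalized counts were 1149.9 ± 88.8 in mutant and 602 ± 75.2 in WT larvae (SD, n = 3), a log2 fold change of 0.93 (SE 0.12, adjusted p = 0.000635 by edgeR). This is 1.91-fold, just under the limit, and without WT vehicle replicate 2 the log2 fold change was 1.01 and lgr6 was called, which made 4 called genes. In rapamycin WT libraries held 605, 382 and 246 reads of lgr6, and mutant libraries 1386, 1215 and 1141. The order of group means was mutant with rapamycin (1189 ± 107), mutant with vehicle, WT with vehicle and WT with rapamycin (486 ± 158), and the step between genotypes was larger than the SD of both its neighbors (SD, n = 3). The steps within a genotype were not, since that between the WT groups was within the SD of WT with rapamycin and that between the mutant groups within both SDs.

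For lgr4 (ENSDARG00000060542), which is widely expressed in mouse tissues, raw counts were 723, 814 and 876 in WT and 583, 941 and 473 in mutant libraries with vehicle. Mutant replicate 2 was above every WT library and the other mutant libraries were below, so the groups overlapped. The log2 fold change of lgr4 was -0.21 (SE 0.20, adjusted p = 0.508 by edgeR), with a 95% interval from -0.67 to 0.26. In rapamycin lgr4 had 653, 591 and 192 reads in WT and 601, 640 and 677 in mutant libraries. The count of 192 is that of WT rapamycin replicate 3, and the spread in this group was 58.9% of the mean. The log2 fold change there was 0.057 (SE 0.37, adjusted p = 0.940 by edgeR), and it was -0.30 without that library and -0.019 with upper-quartile scaling. The ratio of lgr6 to lgr4 counts was 0.779, 0.859 and 0.789 in WT and 2.03, 1.25 and 2.45 in mutant libraries with vehicle, a 2.28-fold difference (exact permutation test, two-sided, p = 0.1, the smallest possible). In rapamycin the ratio differed by 2.13-fold, with 0.926, 0.646 and 1.28 in WT and 2.31, 1.90 and 1.69 in mutant libraries.

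The gene with the largest difference of the 6 was wisp1a (ENSDARG00000054331). WT libraries with vehicle held 17, 19 and 12 reads of it and mutant libraries 173, 231 and 183. Normalized counts were 191 ± 18.5 in mutant and 14.8 ± 3.55 in WT larvae (SD, n = 3), a log2 fold change of 3.68 (SE 0.24, adjusted p = 2.06e-05 by edgeR). It was at or above that of 99.7% of the genes tested, with a 95% interval from 3.13 to 4.22, and it rests on few WT reads. In rapamycin WT libraries had 24, 10 and 11 reads and mutant libraries 221, 269 and 200, which gave 17.1 ± 4.26 and 219 ± 27.2 normalized counts (SD, n = 3). As with rspo2, the 2 WT groups formed a low pair and the mutant groups a high one, and within each pair the libraries overlapped.

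**Figure D3:**
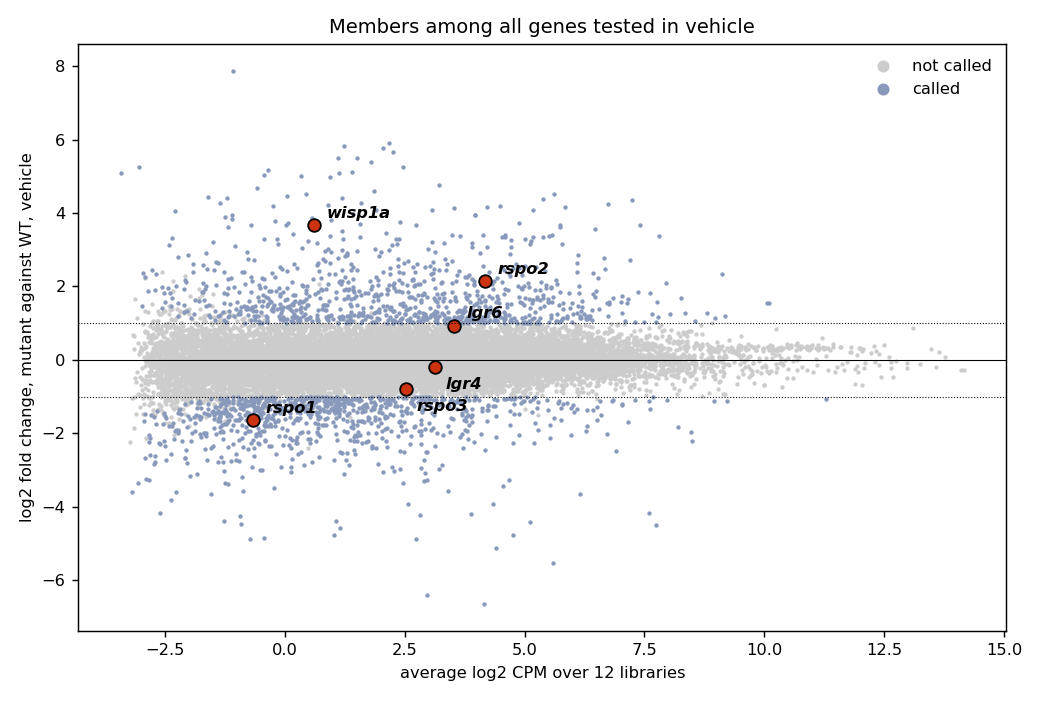
Log2 fold change of mutant against WT larvae with vehicle (vertical axis) against average log2 CPM over the 12 libraries (horizontal axis) for the genes tested, with called genes in blue, other genes in gray, the 6 genes in red and dotted lines at 2-fold. The genes wisp1a and rspo2 lie above the upper line at 3.68 and 2.14, rspo1 lies below the lower line at -1.64, and lgr6, lgr4 and rspo3 lie between the lines.

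Libraries with the same replicate number could be set against each other in 6 pairs, 3 with vehicle and 3 with rapamycin. Vehicle and rapamycin pairs of the same number are related, as given under the processing, so the 6 pairs are not independent. Mutant and WT libraries did not overlap for 43.8% of all genes in vehicle and 29.1% in rapamycin. The share of all genes with 1 direction in all 6 pairs was not computed. The normalized counts of rspo2, lgr6 and wisp1a were higher in the mutant in 6 of 6 pairs and those of rspo1 and rspo3 lower in 6 of 6. This follows from the lack of overlap between genotypes for these genes in each treatment, so it adds no support. By contrast, lgr4 was higher in 2 pairs and lower in 4. For wisp1a the log2 difference ranged from 3.26 to 4.02 over the pairs. For rspo2 it ranged from 1.72 to 2.46, and replicate 2 gave the smallest value in each treatment. Between pairs rspo1 ranged from -2.32 to -1.04, rspo3 from -1.45 to -0.44 and lgr6 from 0.71 to 1.88. The widest range was that of lgr4, -0.80 to 1.49, with both ends in replicate 3.

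Mutant and WT larvae were compared in rapamycin in one edgeR model of all 12 libraries. In it 4 of 6 genes were called, 3 higher and 1 lower, where 7.64% of 22841 genes were (3.84% higher and 3.80% lower). Without the 2-fold minimum 5 of 6 passed, 3 higher and 2 lower, where 17.4% of all genes did (9.11% higher and 8.28% lower). These 5 did not overlap between genotypes and had an unadjusted p under 0.05, and for all genes the shares were 29.1% and 29.8%. The log2 fold changes were 3.65 for wisp1a (SE 0.26), 1.93 for rspo2 (SE 0.16), 1.29 for lgr6 (SE 0.21) and -1.45 for rspo1 (SE 0.36, adjusted p = 0.0161 by edgeR). That of rspo3 was -0.81 (SE 0.19, adjusted p = 0.0102 by edgeR), under 2-fold. Leaving out both WT rapamycin replicates 2 and 3 leaves 1 WT rapamycin library, which the model assumes to vary like the other groups, so these values do not show stability. They were 3.32 for wisp1a, 1.96 for rspo2 and 1.11 for lgr6, which were called, and -1.12 for rspo1 (edgeR adjusted p = 0.141) and -0.52 for rspo3 (edgeR adjusted p = 0.126), which were not. The call of rspo1 in rapamycin was also lost without mutant rapamycin replicate 1 (edgeR adjusted p = 0.0577) or replicate 3 (edgeR adjusted p = 0.0664). The libraries compared here are other libraries than those compared in vehicle, and the model's estimate of the spread draws on both. Libraries of the same replicate number are related across treatments, as given under the processing, so the comparison in rapamycin is not independent of that in vehicle.

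**Figure D4:**
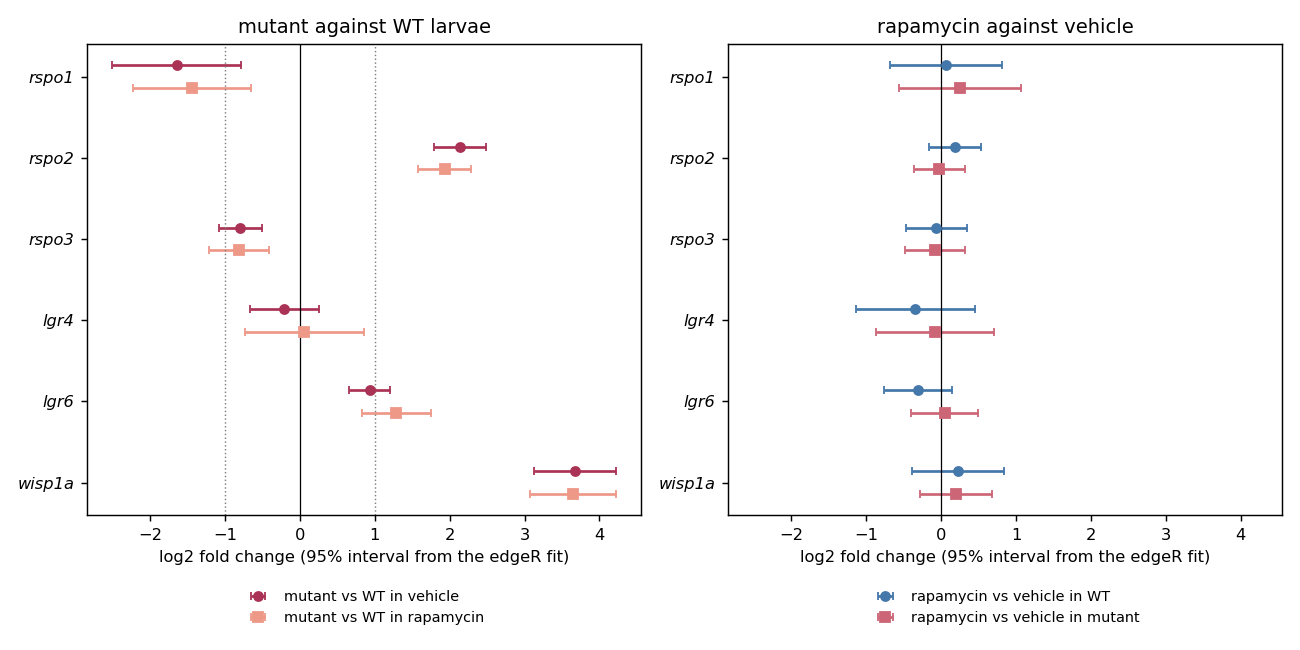
Log2 fold changes (horizontal axis) with 95% intervals from the edgeR fits for the 6 genes, mutant against WT in vehicle and in rapamycin on the left, with dotted lines at 2-fold, and, on the right, rapamycin against vehicle in each genotype, on the same scale. On the left the intervals of wisp1a, rspo2, lgr6, rspo1 and rspo3 exclude 0, and on the right all intervals include 0.

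Rapamycin against vehicle gave no call. Of the 6 genes, 0 had an edgeR adjusted p under 0.05 in WT larvae, in mutant larvae or for the interaction of genotype and rapamycin, and 0 had an unadjusted p under 0.05. Over all 22841 genes the calls by edgeR were 0 (0%) in each of these comparisons, and an unadjusted p under 0.05 was seen for 6.10%, 0.657% and 1.59% of genes. These fits did not pair libraries by replicate number. In mutant larvae and for the interaction the share lay below the proportion of 0.05 that chance alone would give. The lack of a call there does not show that rapamycin had no effect. Rapamycin and vehicle libraries overlapped for all 6 genes in both genotypes, and they did not overlap for 10.7% of all genes in WT and 4.41% in mutant larvae. DESeq2 called 11 genes in WT larvae, 0 in mutant larvae and 2 for the interaction, and 0 of them were among the 6. In mutant larvae the log2 fold changes of the 6 genes lay between -0.081 and 0.26. For rspo2 it was -0.023 with a 95% interval from -0.36 to 0.31, and for wisp1a 0.20 with an interval from -0.28 to 0.68. The intervals were wider for the less abundant rspo1, from -0.56 to 1.07, and for lgr4, from -0.87 to 0.71. In WT larvae the values lay between -0.34 for lgr4 and 0.23 for wisp1a. The value of lgr4 in WT larvae was 0.021 without WT rapamycin replicate 3. The interaction, which is the mutant-minus-WT difference in rapamycin less that in vehicle, was largest for lgr6, at 0.36 with a 95% interval from -0.28 to 0.999, and that of rspo2 was -0.21 with an interval from -0.69 to 0.28. The vehicle libraries enter both the rapamycin comparisons and this interaction.

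The partners of the R-spondins at the membrane were examined with a list of 9 names, which also holds the ligand gene RSPO4. Of these names 7 matched, while rnf43 and kremen2 did not and are not analysed here. In vehicle 2 of 7 genes were called higher and 0 lower, where 4.05% of all genes were called higher and 3.90% lower. Without a fold minimum 5 of 7, RSPO4 among them, were higher, where 14.8% of all genes were. The list had a median log2 fold change of 0.87. It was written with earlier results of these data known, so the share of all genes is no independent background for it. With all 12 libraries in one model, znrf3 and sdc4 alone passed in vehicle, and gpc3, KREMEN1 and RSPO4 did not. In rapamycin 2 of 7 were called higher (3.84% of all genes) and 3 of 7 passed without a fold minimum (9.11% of all genes), with a median of 0.84, and KREMEN1 (edgeR adjusted p = 0.157) and RSPO4 (edgeR adjusted p = 0.185) did not pass. The ubiquitin ligase gene znrf3 (ENSDARG00000062573) had raw counts of 977, 1222 and 1111 in WT and 3020, 3645 and 3581 in mutant libraries, a log2 fold change of 1.71 (SE 0.10, adjusted p = 1.64e-05 by edgeR). In rapamycin it was called at 1.79. Among proteoglycan genes, sdc4, encoding syndecan 4, to which Rspo3 binds in Xenopus, was at 0.87 (SE 0.08, adjusted p = 9.87e-05 by edgeR). The glypican gene gpc3 was called at 1.099 (SE 0.36, adjusted p = 0.0499 by edgeR) from 52, 57 and 25 reads in WT and 56, 122 and 98 in mutant libraries. Leaving out any of 5 of the 6 libraries ended its call, as did upper-quartile scaling, no filter, all 12 libraries in one model and the test against 2-fold. In rapamycin gpc3 was called at 1.58 (SE 0.36, adjusted p = 0.0099 by edgeR), and this was not refitted under the alternatives. KREMEN1 (ENSDARG00000062579), a receptor for Dickkopf proteins, was at 0.91 (SE 0.18, adjusted p = 0.00536 by edgeR). It was called at 1.01 without WT vehicle replicate 1 and at 1.05 without mutant vehicle replicate 3, and its adjusted p by edgeR was 0.18 with all 12 libraries in one model. The Wnt co-receptor genes LRP5 (ENSDARG00000006921) and LRP6 (ENSDARG00000100143) were not called, at 0.066 (95% interval -0.47 to 0.60) and -0.084 (95% interval -0.56 to 0.39).

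A list of receptors for glycoprotein hormones and relaxin-family peptides, most of them relatives of the Lgr proteins, was low in reads. It includes rxfp3, which lacks the leucine-rich repeats and is no Lgr relative. The names rxfp2a and rxfp2b matched no row. Of 5 matched, 4 were tested in vehicle, and 0 had an edgeR adjusted p under 0.05, where 28.4% of all genes did. Mutant and WT libraries with vehicle did not overlap for TSHR and RXFP1, nor for 43.8% of all genes. Over the 12 libraries lhcgr had 2 to 22 reads, TSHR 3 to 19, RXFP1 19 to 63 and rxfp3 16 to 53, and FSHR at most 1.

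In the CCN family, 6 genes other than wisp1a matched the list. Of these 2 were called higher and 1 lower in vehicle, and 3 did not pass, where 4.05% of all genes were called higher and 3.90% lower. The direction thus differed among these 6 genes. Other names on the list, such as ctgfa, ccn2a, nov, ccn3, wisp1b and ccn4b, matched no row. The list was written with earlier results of these data known, so the share of all genes is no independent background for it. The gene wisp3 (ENSDARG00000071048, ccn6) had raw counts of 349, 293 and 416 in WT and 71, 112 and 74 in mutant libraries, a log2 fold change of -1.97 (SE 0.20, adjusted p = 0.000184 by edgeR). The matricellular genes cyr61 and cyr61l1 were called at 1.07 (SE 0.17, adjusted p = 0.00218 by edgeR) and 1.11 (SE 0.21, adjusted p = 0.00414 by edgeR). Both are near the limit, and cyr61 came to 0.95 to 0.99 without any one of WT vehicle replicate 1, mutant vehicle replicate 2 or mutant vehicle replicate 3, while cyr61l1 came to 0.87 without mutant vehicle replicate 3. The values of ccn1l2, ccn2b and CCN5 were 0.29, -0.050 and 0.55. A gene with the name CCN4 (ENSDARG00000076685), named here after its values were seen because RefSeq lists ccn4a and ccn4b, had 44, 59 and 43 reads in WT and 24, 57 and 23 in mutant libraries. Its log2 fold change of -0.43 (95% interval -1.28 to 0.42, edgeR adjusted p = 0.443) stood against the 3.68 of wisp1a. In rapamycin, 2 of the 6 list genes were again called higher, cyr61 at 1.47 and cyr61l1 at 1.16, and 1 lower, wisp3 at -1.95, where 3.84% of all genes were called higher and 3.80% lower. These were not refitted without WT rapamycin replicates 2 and 3.

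**Figure D5:**
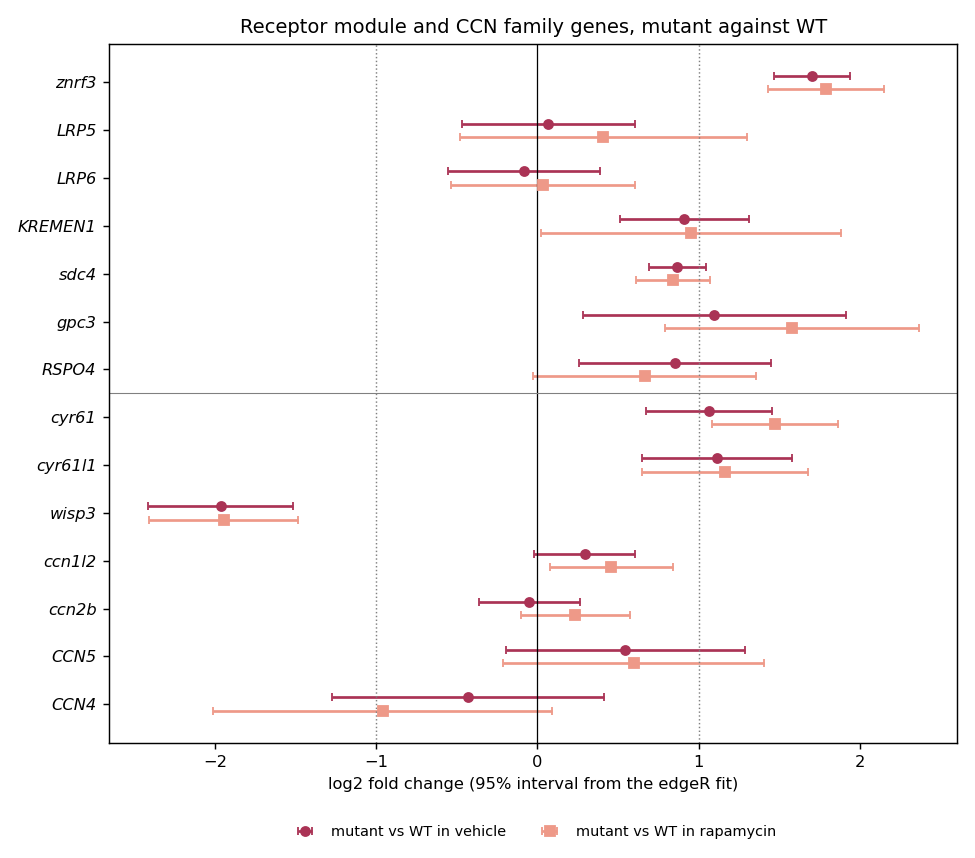
Log2 fold changes (horizontal axis) with 95% intervals from the edgeR fits, mutant against WT in vehicle and in rapamycin, for genes of the R-spondin receptor list above the gray line and of the CCN family below it, with dotted lines at 2-fold. The intervals of znrf3, sdc4, gpc3, KREMEN1, cyr61 and cyr61l1 lie above 0 in both treatments, and that of wisp3 lies below 0 in both. That of RSPO4 lies above 0 in vehicle only and that of ccn1l2 in rapamycin only. Those of LRP5, LRP6, ccn2b, CCN5 and CCN4 include 0. The intervals are not adjusted for the number of genes tested.

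For the 3 genes called in vehicle, the most similar patterns over the 12 libraries were looked for among 21206 genes, by the root mean square difference of log2 CPM after each gene's mean was subtracted. Nearest to rspo2 were ccdc80 (0.12), trpc4b (0.13) and hbegfa (0.14), against a median of 1.05 over all genes. The log2 fold changes of these 3 genes in vehicle were 1.96, 2.07 and 2.12. Nearest to wisp1a were atf3 (0.21), bcl3 (0.25) and flnb (0.25), with a median of 1.63, and nearest to rspo1 were rgra (0.19), igflr1 (0.20) and rdh8b (0.22), with a median of 0.78. These distances are a description over the 12 libraries, which differ in genotype, treatment and depth.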

How the data were processed

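The authors made stranded poly-A libraries and deposited estimated counts per Ensembl gene as whole numbers without scaling. The paper's methods name STAR and GRCz10 for mapping, and the submitters' processing notes name Salmon. Versions and how reads shared by gene copies were assigned are not given in the sources used here. Gene names came from the paper's first supplemental table for 1743 genes and otherwise from Ensembl symbols (21193 genes), some of them human symbols. That table lists genes the paper found changed between mutant and WT larvae, and rspo1, rspo2 and wisp1a were named from it. Members, lists and tests were chosen with earlier results of these data known.

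The counts were tested with edgeR 4.0.16 in R 4.3.3 (TMM scaling, filterByExpr with a minimum count of 10, quasi-likelihood tests, Benjamini-Hochberg adjustment). Mutant and WT with vehicle were fitted on 6 libraries, and other contrasts on 12. SEs are the log2 fold change divided by the square root of the test's F, and 95% intervals use the test's degrees of freedom. The procedure was tested on simulated data. The alternatives comprised no filter, 10 counts in every library, RLE scaling, upper-quartile scaling, DESeq2 1.42.0, other sets of libraries, a replicate block, no fold minimum, a test against 2-fold (glmTreat), each library left out, and, chosen after seeing the data, WT rapamycin replicates 2 and 3 left out together.

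Replicate numbers run from 1 to 3 in each group, and the paper names 3 clutches. After subtraction of group means, the 18 same-numbered pairs of libraries had correlations over genes of at least 0.147 (mean 0.315), and the 36 pairs with different numbers at most 0.0016. The numbers were therefore taken as pairs in the pair differences and in the replicate block. The main fits, with their SEs, intervals and adjusted p-values, did not use the pairing. Named genes are the 6 members, apc, members of the lists, the 3 nearest genes to each member called in vehicle with a mean of at least 20 counts and an offset of 0.1 CPM, and CCN4.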

Additional observations from a re-analysis of the deposited data

How the results depend on the processing

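The number of the 6 genes called in vehicle was 3, and 5 with no fold minimum. It was 3 to 4 with each library left out, 2 in a test against a 2-fold change and 3 under the other alternatives. Of all genes, 6333 passed with no fold minimum, 1523 to 1978 were called with each library left out and 638 in the test against 2-fold. Under the other alternatives 1554 to 1860 were called, and 21086 to 25208 genes were tested. In rapamycin it was 4, with 5 under no fold minimum, 3 without WT rapamycin replicates 2 and 3, which leaves 1 WT rapamycin library, and 2 in a test against a 2-fold change, where rspo1 (adjusted p = 0.709) and lgr6 (adjusted p = 0.576) were lost, and 3 to 4 with each library left out. Of all genes in rapamycin, 3972 of 22841 passed with no fold minimum and 574 in the test against 2-fold. With each library left out 1443 to 2166 of 23023 to 23080 genes were called. With the replicate block 3 of the 6 genes were called in vehicle, 4 in rapamycin and 0 in the comparisons with vehicle and the interaction. It changed no call of the 6 genes. Of all genes, this block gave 1860 calls among 22335 in vehicle and 1839 among 22841 in rapamycin. In rapamycin lgr4 turned to -0.019 with upper-quartile scaling. With that 1 WT rapamycin library, assumed to vary like the other groups, rspo1 in WT larvae given rapamycin against vehicle turned to -0.25 and the interaction of rspo3 to 0.26.

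Signs of small values turned as single libraries were left out. In vehicle these were LRP5 (-0.28 to 0.23), LRP6 (-0.37 to 0.12) and ccn2b (-0.12 to 0.038), and in rapamycin lgr4 (-0.30 to 0.52). For rapamycin in WT larvae they were rspo1 (-0.040 to 0.21), rspo3 (-0.23 to 0.065), lgr4 (-0.81 to 0.021) and wisp1a (-0.018 to 0.38). In mutant larvae they were rspo2 (-0.15 to 0.14), rspo3 (-0.20 to 0.074), lgr4 (-0.28 to 0.20) and lgr6 (-0.029 to 0.11). For the interaction they were rspo1 (-0.059 to 0.75), rspo3 (-0.14 to 0.15), lgr4 (-0.10 to 0.73) and wisp1a (-0.18 to 0.22). The cause was not tested. Reads were few for wisp1a, with 10 to 24 in WT libraries, and for rspo1, with 14 to 33 in mutant libraries.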

Other observations

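WT rapamycin replicate 3 was the lowest of the WT rapamycin libraries for some genes and the highest for others. It had 239 normalized counts of lgr4, where the other WT rapamycin libraries had 595 and 931, and 306 of lgr6, where they had 551 and 602. KREMEN1 had 57.2 in this library against 196 and 329, and LRP5 had 195 against 368 and 822, while LRP6 had 1191 against 870.3 and 1411. Some genes that encode no receptor were also lower there, with 4732 of APC against 9807 and 10156 and 27.3 of CCN5 against 63.8 and 59.9. For the R-spondin genes it had 597 of rspo2 against 544 and 525, 638 of rspo3 against 434 and 518, and 77.0 of rspo1 against 54.7 and 74.0. These are values of 1 library and were not tested.

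CCN4 was highest in replicate 2 of every group. In mutant larvae it had 52.2 normalized counts against 25.3 and 22.3 in vehicle and 47.3 against 19.9 and 10.9 in rapamycin. In WT larvae it had 55.6 against 40.4 and 39.2 in vehicle and 58.3 against 46.5 and 48.5 in rapamycin.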
